A study of Danio rerio with 24 samples.

Results

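The 10 genes described here were grouped under fasting and fatty acid oxidation: *angptl4*, *pdk2a*, *pdk2b*, *cpt1aa*, *cpt1ab*, *cpt1b*, *cpt2*, *acadvl*, *plin2* and *slc25a33*. They were chosen by name, with earlier results of these same libraries in view, so the group was selected on differences in their counts between the rapamycin, MTZ and DMSO groups, and its values below are a description rather than independent evidence. All 10 genes were present in both deposited tables, out of 25281 genes counted, and all 10 passed the filter on low counts at each time point. RNA was measured in retinal pigment epithelium (RPE) cells sorted from *rpe65a*:nfsB-eGFP zebrafish larvae, in which the *rpe65a* promoter drives a nitroreductase-eGFP fusion in the RPE, so that the prodrug metronidazole (MTZ, 10 mM, given at 5 dpf) kills these cells. The 8 groups of 3 libraries were MTZ+ rapamycin, MTZ+ DMSO, MTZ- rapamycin and MTZ- DMSO larvae, each at 2 days post-injury (2dpi, 7 dpf) and at 4 days post-injury (4dpi, 9 dpf). MTZ+ larvae carry an ablated RPE and MTZ- larvae an intact one. Rapamycin (2 µM), an inhibitor of the mTOR kinase, was given from 4 dpf, and DMSO was its vehicle. All groups carried the transgene, had been kept in the pigment inhibitor phenylthiourea until 5 dpf, and were sorted for eGFP and against a dead-cell stain. Each library pooled about 80 eyes of 40 larvae and came from at most 1000 cells. In MTZ+ larvae the eGFP+ cells are those left after ablation or formed since, which cannot be told apart here.

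During fasting, cells turn from glucose to fatty acids. *angptl4* encodes a secreted inhibitor of lipoprotein lipase and is a well-known target of the PPAR nuclear receptors, and the pyruvate dehydrogenase kinases (*pdk2a*, *pdk2b*) switch off the entry of pyruvate into the citric acid cycle. Long-chain fatty acids enter mitochondria through carnitine palmitoyltransferase 1 on the outer membrane (*cpt1aa*, *cpt1ab*, *cpt1b*), the step that limits their oxidation, and carnitine palmitoyltransferase 2 on the inner membrane (*cpt2*). Very long-chain acyl-CoA dehydrogenase (*acadvl*) then takes the first step of beta-oxidation. *plin2* coats lipid droplets, and *slc25a33* encodes a mitochondrial carrier of pyrimidine nucleotides, a role outside these pathways. The mammalian RPE oxidises fatty acids, many of them from the photoreceptor outer segments it engulfs, and leaves glucose to the photoreceptors.

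Total counts ran from 20607731 to 37189527 per library with a median of 32437828. The summed level of 11 RPE markers ranged from 24341 to 128177 CPM in MTZ+ and from 100635 to 183214 CPM in MTZ- libraries, and *rpe65a* itself from 1923 to 18286 CPM against 12747 to 24031 CPM, so RPE genes were expressed in every library, at lower sums in most MTZ+ libraries. CPM here are counts scaled to library size with TMM factors over all 24 libraries, which keeps a gene comparable between libraries but not with genes of another length. A list of 6 Müller glia genes, which includes *apoeb* and *rlbp1a*, summed to 2569-3869 CPM in MTZ+ rapamycin, 9749-16157 in MTZ+ DMSO, 9209-10394 in MTZ- rapamycin and 5619-10634 CPM in MTZ- DMSO at 2dpi. At 4dpi the list summed to 1164-5277 CPM in MTZ+ rapamycin, 21256-36028 in MTZ+ DMSO, 9052-9192 in MTZ- rapamycin and 10190-12706 CPM in MTZ- DMSO, and 0 of its 6 genes were at 0 throughout a group. Sums of 12 photoreceptor markers were 62.8-2246 CPM in MTZ+ rapamycin, 57.3-6038 in MTZ+ DMSO, 2535-14951 in MTZ- rapamycin and 1314-6846 CPM in MTZ- DMSO at 2dpi, and 289-441 CPM in MTZ+ rapamycin, 370-1388 in MTZ+ DMSO, 520-8815 in MTZ- rapamycin and 91.4-559 CPM in MTZ- DMSO at 4dpi. Sums of 8 epidermal markers were 329-821 CPM in MTZ+ rapamycin, 71.3-120 in MTZ+ DMSO, 36.6-622 in MTZ- rapamycin and 111-162 CPM in MTZ- DMSO at 2dpi, and 117-323 CPM in MTZ+ rapamycin, 228-475 in MTZ+ DMSO, 263-557 in MTZ- rapamycin and 855-1280 CPM in MTZ- DMSO at 4dpi. Sums of 7 adipocyte and liver markers were 213-337 CPM in MTZ+ rapamycin, 65.7-131 in MTZ+ DMSO, 317-436 in MTZ- rapamycin and 242-317 CPM in MTZ- DMSO at 2dpi, and 101-385 CPM in MTZ+ rapamycin, 66.1-212 in MTZ+ DMSO, 188-307 in MTZ- rapamycin and 257-306 CPM in MTZ- DMSO at 4dpi. Sums of 8 skeletal muscle markers were 19.5-44.9 CPM in MTZ+ rapamycin, 16.6-29.9 in MTZ+ DMSO, 60.2-98.3 in MTZ- rapamycin and 53.9-64.1 CPM in MTZ- DMSO at 2dpi, and 70.4-139 CPM in MTZ+ rapamycin, 29.7-93.7 in MTZ+ DMSO, 39.9-56.8 in MTZ- rapamycin and 19.2-36.8 CPM in MTZ- DMSO at 4dpi. For the Müller glia list the MTZ+ rapamycin sums thus lay below all MTZ+ DMSO sums at both times, and the MTZ- rapamycin sums below all MTZ- DMSO sums at 4dpi. The median gene of that list averaged 155 CPM in MTZ+ rapamycin against 281 CPM in MTZ+ DMSO at 2dpi, and 72.2 against 511 CPM at 4dpi. In MTZ- larvae at 4dpi it went against the sums, at 144 CPM with rapamycin and 29.2 CPM with DMSO. The MTZ+ rapamycin sums lay above all MTZ+ DMSO sums at 2dpi for the RPE, the epidermal and the adipocyte and liver lists. The RPE sums there were 54891-105086 CPM with rapamycin and 25414-47840 CPM with DMSO, and *rpe65a* had 6386-10029 against 1923-5098 CPM. At 4dpi the MTZ- rapamycin sums lay above all MTZ- DMSO sums for the muscle list and below them for the epidermal list. Up to 3 of the 7 adipocyte and liver genes and 4 of the 8 muscle genes were at 0 throughout a group. The median gene of these lists averaged at most 0.736 and 0.342 CPM in any group, so their sums rested on a minority of their genes. The leukocyte, endothelial, lens and erythrocyte lists reached at most 142, 9.21, 21.2 and 34.6 CPM. The part of these other cells in the results below was not tested, and a smaller share of RPE cells cannot be told apart from less RNA of a gene per cell. Among the 4dpi libraries, MTZ+ rapamycin replicate 2 stood apart with the lowest RPE marker sum, 24341 CPM against 128177 and 67884 CPM in replicates 1 and 3. The raw names of the MTZ+ rapamycin and MTZ+ DMSO libraries of replicate 2 at 4dpi also carry each other's letter compared with replicates 1 and 3, so the calls at 4dpi that rest on them are given without both as well. Libraries of one number at one time point share a date in their raw names.

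The genes differed in level. In TPM, which divides by gene length and so allows genes to be compared, *angptl4* averaged 255 over the 24 libraries and ranked 588 among all genes, followed by *slc25a33* at 106, *acadvl* at 80.3, *pdk2b* at 72.3 and *pdk2a* at 69.9 TPM. The transferases were lower, with *cpt2* at 15.0, *cpt1aa* at 12.5, *cpt1ab* at 8.68 and *cpt1b* at 1.97 TPM, and *plin2* was at 1.11 TPM. The pairs *pdk2a* and *pdk2b*, and *cpt1aa* and *cpt1ab*, are related copies, and how reads shared between copies were counted is not given in the sources used here, so the split of reads within each pair is uncertain. On GRCz11, *cpt1b* (chromosome 18, 8340886 to 8367566, plus strand) overlaps *BX276107.1* on the same strand, and the other 9 genes overlap no other gene in the deposited tables. *angptl4* lies on chromosome 2 from 24536762 to 24542518 (plus strand) and *slc25a33* on chromosome 23 from 29861243 to 29878643 (minus strand). *pdk2a* lies on chromosome 12 from 28559408 to 28570989 (minus strand), *pdk2b* on chromosome 19 from 5674907 to 5687743 (plus strand), *cpt1aa* on chromosome 7 from 48805534 to 48830121 (plus strand) and *cpt1ab* on chromosome 25 from 23591990 to 23645806 (plus strand). *cpt2* lies on chromosome 8 from 21137446 to 21142602 (minus strand), *acadvl* on chromosome 7 from 20298333 to 20333524 (plus strand) and *plin2* on chromosome 15 from 17030473 to 17048822 (plus strand).

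**Figure D1:**
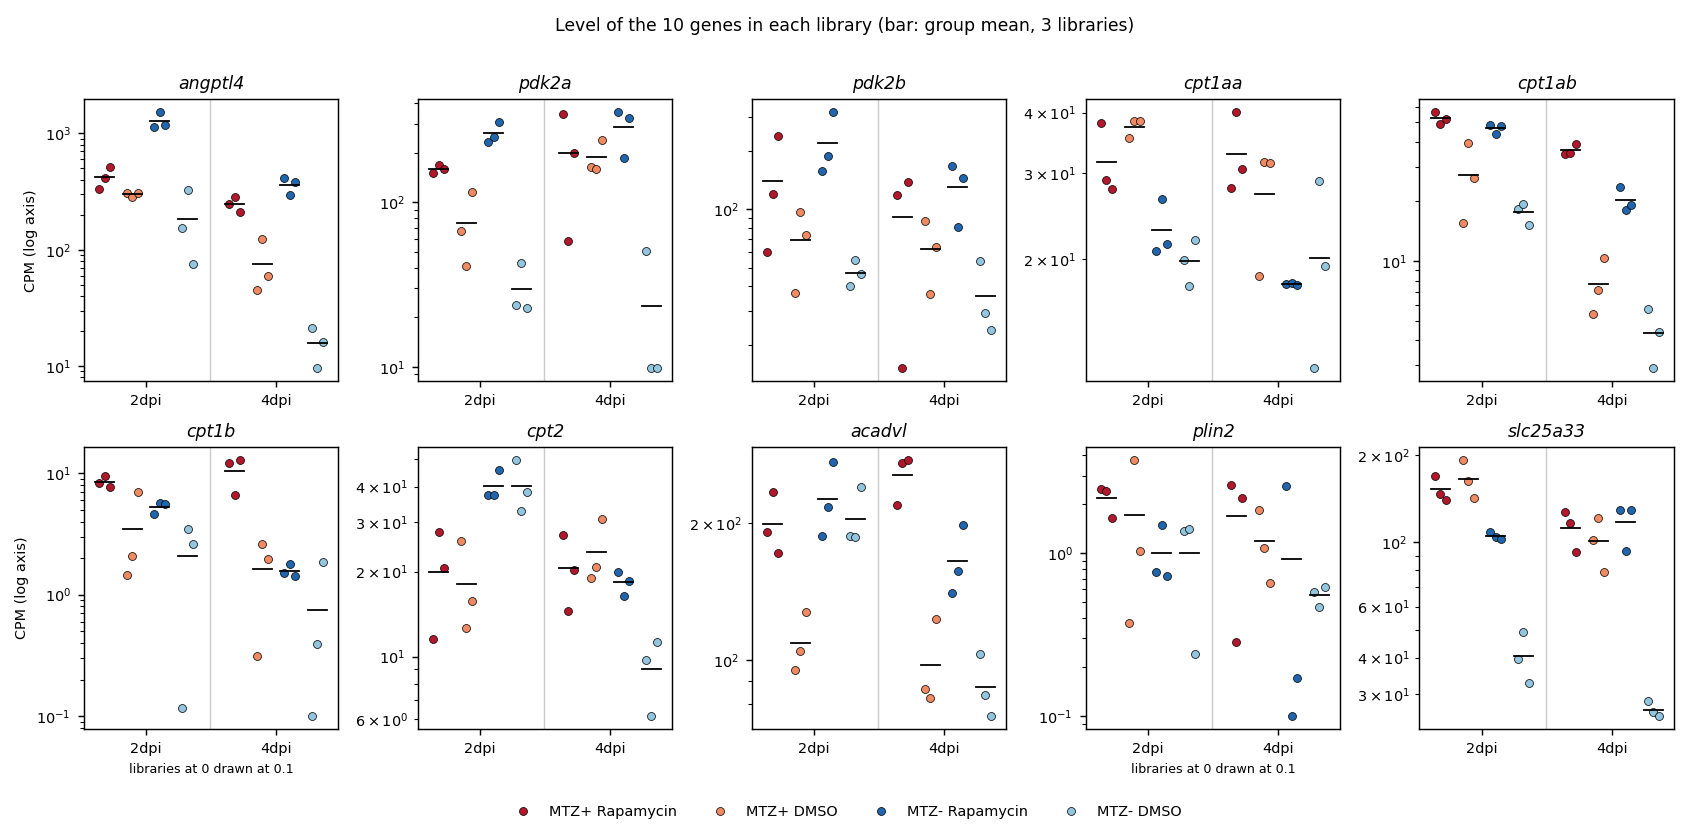
CPM of each of the 10 genes (log axis, one panel per gene) in the 3 libraries of each group, at 2dpi on the left and 4dpi on the right of each panel, with a bar at the group mean and libraries at 0 drawn at 0.1. The MTZ- DMSO libraries at 4dpi lie lowest for *angptl4*, with 9.58 to 21.4 CPM, and the MTZ- rapamycin libraries at 2dpi lie highest, with 1138 to 1521 CPM.

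In intact RPE, *angptl4* and *pdk2a* had the largest rises of the 10 genes with rapamycin at both times. At 2dpi 3 of the 10 genes were higher in MTZ- rapamycin than in MTZ- DMSO larvae (*angptl4*, *pdk2a* and *slc25a33*), where 0.0855% of all 17536 genes tested were called higher and 0% lower, at an adjusted p under 0.05 (edgeR's quasi-likelihood test, Benjamini-Hochberg correction across all genes). At 4dpi 5 of 10 were higher (*angptl4*, *pdk2a*, *cpt1ab*, *acadvl* and *slc25a33*), against 2.28% of 17515 genes called higher and 0.331% called lower. The median log2 fold change of the 10 genes was 1.39 at 2dpi and 1.47 at 4dpi, beside 0.00 and 0.02 over all genes tested. At 2dpi 1323 genes of the whole table had an unadjusted p under 0.05. Of the 10, 0 were called lower at either time. Since the genes were chosen with such differences known, these shares describe them and test nothing.

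In ablated RPE, *cpt1ab*, *acadvl* and *angptl4* rose with rapamycin at 4dpi, and no gene of the 10 passed at 2dpi. At 2dpi edgeR called 0 of 10 in MTZ+ rapamycin against MTZ+ DMSO larvae, while 4 had an unadjusted p under 0.05, all higher, and DESeq2 called 1 (*acadvl*). Over all 17536 genes edgeR called 0.371% higher and 0.177% lower, and 2374 had an unadjusted p under 0.05. At 4dpi 3 of 10 were higher (*angptl4*, *cpt1ab* and *acadvl*), against 1.63% of genes called higher and 1.88% lower. The median log2 fold change of the 10 was 0.68 at 2dpi and 0.49 at 4dpi, beside 0.02 and -0.02 over all genes.

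Libraries of one date were also set against each other. *angptl4* and *cpt1ab* were higher with rapamycin on 3 of 3 dates in all 4 comparisons of rapamycin with DMSO, *slc25a33* on 3 of 3 in MTZ- larvae at both times but on 0 of 3 in MTZ+ larvae at 2dpi and 2 of 3 at 4dpi, and *pdk2a* on 3 of 3 in each comparison except MTZ+ at 4dpi, with 1 of 3. *pdk2b* missed 3 of 3 only in MTZ+ at 4dpi, *acadvl* only in MTZ- at 2dpi and *cpt1b* only in MTZ- at 4dpi, each with 2 of 3. *cpt2* reached 3 of 3 only in MTZ- at 4dpi, and *cpt1aa* and *plin2* in no comparison. The share of all genes that reached 3 of 3 is not given.

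**Figure D2:**
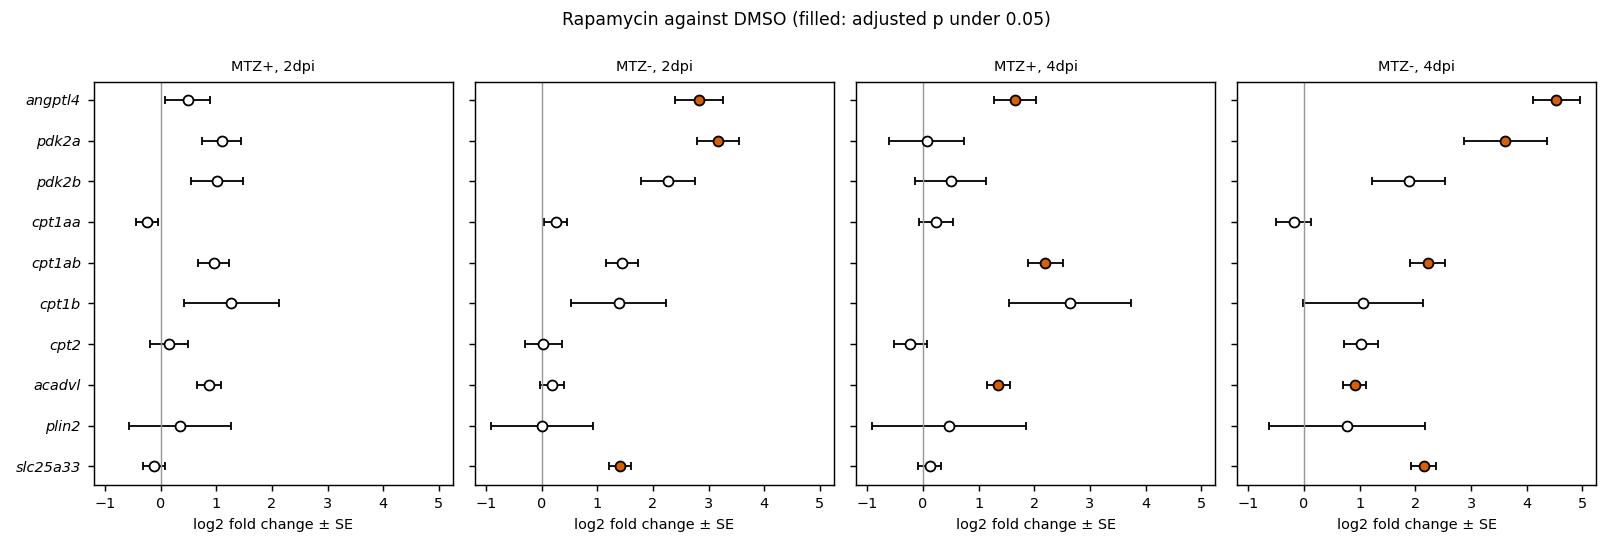
Log2 fold change of rapamycin over DMSO for each of the 10 genes, with its standard error (SE), in MTZ+ and MTZ- larvae at 2dpi and 4dpi. Filled points passed an adjusted p under 0.05 over all genes tested. *angptl4* stood at 4.53 in MTZ- and 1.66 in MTZ+ larvae at 4dpi, and *cpt1ab* at 2.22 and 2.20.

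*angptl4* had 1138, 1521 and 1188 CPM in MTZ- rapamycin libraries at 2dpi, against 154, 325 and 75.9 CPM in MTZ- DMSO libraries. The groups did not overlap, and the DMSO libraries were spread widely around their mean. The fold was 7.05 (log2 2.82 ± 0.43 SE, adjusted p = 0.0430). This call was lost when any of 5 of the 6 libraries was left out. It was also lost with only the 6 libraries compared (adjusted p = 0.0965) and with library totals in place of TMM (adjusted p = 0.0558). At 4dpi it had 413, 295 and 384 CPM in MTZ- rapamycin and 21.4, 9.58 and 16.2 CPM in MTZ- DMSO libraries. All 3 rapamycin libraries were far above the DMSO ones, by 23.1-fold (log2 4.53 ± 0.43, adjusted p = 0.00149), and the call held without each library in turn.

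In MTZ+ larvae at 2dpi *angptl4* had 333, 414 and 516 CPM with rapamycin and 310, 286 and 307 CPM with DMSO. The rapamycin libraries were all higher, by 1.40-fold, and the difference did not pass (log2 0.49 ± 0.40, adjusted p = 0.678). At 4dpi it had 246, 285 and 210 CPM with rapamycin and 44.9, 124 and 59.4 CPM with DMSO. The groups did not overlap, with DMSO replicate 2 nearest to the rapamycin libraries, and the fold was 3.16 (log2 1.66 ± 0.38, adjusted p = 0.0373), and without both MTZ+ libraries of replicate 2 it still passed (log2 2.10, adjusted p = 0.0493). In TPM the order within MTZ+ rapamycin at 2dpi differed, with replicate 3, the library of the lowest scaling factor, lowest instead of highest. *angptl4* then had 256, 337 and 233 TPM with rapamycin and 254, 263 and 226 TPM with DMSO, which overlapped. For the 4dpi call the adjusted p was 0.0592 with the replicate block, 0.0942 with only the 6 libraries compared and 0.0831 with library totals. The call was also lost in 4 of 6 leave-one-out fits.

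The kinase gene *pdk2a* had 234, 250 and 306 CPM in MTZ- rapamycin and 23.8, 43.0 and 22.9 CPM in MTZ- DMSO libraries at 2dpi. Each rapamycin library was above every DMSO library, and the fold was 9.01 (log2 3.17 ± 0.37, adjusted p = 0.00870), a call that 3 of 6 leave-one-out fits lost. At 4dpi *pdk2a* had 353, 185 and 326 CPM with rapamycin, against 50.9, 9.83 and 9.80 CPM with DMSO. DMSO replicate 1 stood above the other two without reaching the rapamycin libraries. The fold was 12.3 (log2 3.62 ± 0.75, adjusted p = 0.0287), and 4 of 6 leave-one-out fits lost the call. In MTZ+ larvae *pdk2a* had 152, 170 and 158 CPM with rapamycin and 66.9, 41.1 and 116 CPM with DMSO at 2dpi, groups that did not overlap but did not pass the test (log2 1.098 ± 0.35, adjusted p = 0.177). In TPM they overlapped, with 75.1, 88.9 and 45.9 TPM with rapamycin and 35.3, 24.3 and 55.1 TPM with DMSO. At 4dpi it had 344, 58.1 and 201 CPM with rapamycin and 165, 160 and 239 CPM with DMSO. These overlapped, and the library of replicate 2 that stood apart on RPE markers was also the lowest for *pdk2a*.

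Its relative *pdk2b* had 157, 189 and 316 CPM in MTZ- rapamycin libraries and 40.3, 54.5 and 46.2 CPM in MTZ- DMSO libraries at 2dpi. The groups did not overlap, and the difference (log2 2.27 ± 0.48, a fold of 4.82) missed the threshold at adjusted p = 0.120, but passed with the replicate block (log2 2.18, adjusted p = 0.0418). At 4dpi *pdk2b* had 167, 81.0 and 145 CPM with rapamycin and 54.0, 29.3 and 23.8 CPM with DMSO. The fold was 3.68 with no overlap, and it did not pass either (log2 1.88 ± 0.66, adjusted p = 0.162). In MTZ+ rapamycin libraries *pdk2b* ranged from 60.5 to 238 CPM at 2dpi and from 15.2 to 138 CPM at 4dpi, overlapping the MTZ+ DMSO libraries each time.

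Of the genes for carnitine palmitoyltransferase 1, *cpt1ab* rose with rapamycin at 4dpi, and *cpt1aa* did not pass in any comparison of rapamycin with DMSO. *cpt1ab* had 34.5, 35.0 and 38.8 CPM in MTZ+ rapamycin and 5.41, 7.16 and 10.4 CPM in MTZ+ DMSO libraries at 4dpi. It was 4.60-fold higher (log2 2.20 ± 0.31, adjusted p = 0.00674), as in MTZ- larvae, where 23.6, 18.1 and 19.3 CPM with rapamycin stood against 5.75, 2.90 and 4.43 CPM with DMSO, a 4.66-fold difference (log2 2.22 ± 0.31, adjusted p = 0.00545). Both calls held in all 6 leave-one-out fits, while that in MTZ+ larvae missed the threshold with both MTZ+ libraries of replicate 2 left out (log2 2.19, adjusted p = 0.0693). At 2dpi *cpt1ab* had 56.2, 49.2 and 52.0 CPM in MTZ+ rapamycin and 15.6, 39.3 and 26.4 CPM in MTZ+ DMSO libraries, and 48.7, 43.6 and 48.1 CPM in MTZ- rapamycin and 18.3, 19.5 and 15.2 CPM in MTZ- DMSO libraries. In CPM no rapamycin library overlapped its DMSO group, while in TPM the MTZ+ groups overlapped, with 19.7, 18.2 and 10.6 with rapamycin and 5.81, 16.4 and 8.83 with DMSO, and neither difference passed (log2 0.95 ± 0.28, adjusted p = 0.148 in MTZ+, and log2 1.44 ± 0.29, adjusted p = 0.0994 in MTZ-).

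*cpt1aa* lay between 27.8 and 38.1 CPM in MTZ+ rapamycin and between 35.4 and 38.4 CPM in MTZ+ DMSO libraries at 2dpi, and in all 4 rapamycin comparisons its log2 fold change was between -0.24 and 0.25. Its groups overlapped each time. *cpt1b*, the counterpart of the muscle form of mammals, rested on few reads, from 0 to 509 counts. It had 12.04, 6.63 and 12.8 CPM in MTZ+ rapamycin and 0.313, 2.61 and 1.96 CPM in MTZ+ DMSO libraries at 4dpi, with no overlap, yet did not pass (log2 2.64 ± 1.104, adjusted p = 0.218). The study, with its own test, listed *cpt1b* as raised by rapamycin in this comparison, and *cpt1ab* and *angptl4* as well. *cpt2* had 19.99, 16.4 and 18.5 CPM in MTZ- rapamycin and 9.68, 6.15 and 11.2 CPM in MTZ- DMSO libraries at 4dpi, a 2.03-fold difference without overlap that missed the threshold (log2 1.02 ± 0.31, adjusted p = 0.112). In MTZ+ larvae *cpt2* overlapped between rapamycin and DMSO at both times.

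The dehydrogenase gene *acadvl* had 219, 271 and 275 CPM in MTZ+ rapamycin and 86.4, 82.5 and 123 CPM in MTZ+ DMSO libraries at 4dpi. All 3 rapamycin libraries were higher, by 2.56-fold (log2 1.35 ± 0.21, adjusted p = 0.00860). The call held without each library in turn and missed the threshold without both MTZ+ libraries of replicate 2 (log2 1.21, adjusted p = 0.0809). In MTZ- larvae *acadvl* had 140, 157 and 198 CPM with rapamycin and 103, 83.9 and 75.2 CPM with DMSO at 4dpi. That 1.88-fold rise only just passed (log2 0.91 ± 0.20, adjusted p = 0.0409), was lost in all 6 leave-one-out fits and had an adjusted p of 0.0572 with the replicate block. At 2dpi *acadvl* had 192, 234 and 172 CPM in MTZ+ rapamycin and 94.8, 105 and 128 CPM in MTZ+ DMSO libraries, without overlap and without passing (log2 0.87 ± 0.22, adjusted p = 0.0920). In TPM these groups overlapped, with 98.1, 127 and 51.6 TPM with rapamycin and 51.6, 63.9 and 62.6 TPM with DMSO.

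The droplet coat gene *plin2* was near the limit of detection, with 0 to 114 counts per library. It ranged from 0.285 to 2.62 CPM in MTZ+ rapamycin and from 0 to 2.59 CPM in MTZ- rapamycin libraries at 4dpi, and passed no test in any comparison. Its log2 fold changes between groups of one time point carried standard errors of 0.91 to 1.41.

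The nucleotide carrier gene *slc25a33* had 109, 104 and 103 CPM in MTZ- rapamycin and 39.7, 49.1 and 32.8 CPM in MTZ- DMSO libraries at 2dpi. The 2.65-fold rise (log2 1.41 ± 0.20, adjusted p = 0.0430) was lost in 5 of 6 leave-one-out fits and with library totals (adjusted p = 0.147). At 4dpi it had 129, 93.5 and 129 CPM with rapamycin and 28.4, 25.9 and 25.1 CPM with DMSO. The DMSO libraries lay within a narrow range far below all rapamycin libraries, and the 4.42-fold rise (log2 2.15 ± 0.22, adjusted p = 0.00169) held in all 6 leave-one-out fits. In MTZ+ larvae *slc25a33* had 170, 147 and 140 CPM with rapamycin and 192, 162 and 143 CPM with DMSO at 2dpi, and 128, 117 and 92.4 CPM with rapamycin and 102, 121 and 79.1 CPM with DMSO at 4dpi. The MTZ+ groups overlapped at both times.

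Whether the response to rapamycin differed between ablated and intact RPE was tested as an interaction, the log2 fold change in MTZ+ less that in MTZ- larvae. At 4dpi 2 of the 10 genes passed, both with the smaller rise in MTZ+ larvae, while 2.86% of all genes were called lower and 0.605% higher. *angptl4* differed by -2.87 ± 0.53 (adjusted p = 0.0178) and *slc25a33* by -2.03 ± 0.30 (adjusted p = 0.00964). Both differences passed in all 12 leave-one-out fits, and *slc25a33* also passed without both MTZ+ libraries of replicate 2 (log2 -1.89, adjusted p = 0.0453), where *angptl4* stood at -2.43 with an adjusted p of 0.0513. *pdk2a* differed by -3.55 ± 0.99 without passing (adjusted p = 0.0752) and passed with the replicate block (log2 -4.22, adjusted p = 0.0259). *cpt1ab* differed by -0.02 ± 0.41 (adjusted p = 0.997) and *acadvl* by 0.45 ± 0.29 (adjusted p = 0.449), so no difference in their response was detected. The 10 genes had a median of -0.77, beside -0.03 over all genes. At 2dpi edgeR called 0 of 10, 4 had an unadjusted p under 0.05, and DESeq2 called 3 (*angptl4*, *pdk2a* and *slc25a33*, each smaller in MTZ+). Over all 17536 genes edgeR called 0.0171% higher and 0.0057% lower, and 1340 had an unadjusted p under 0.05. The response in MTZ+ larvae was not shown to differ between the time points for any of the 10: edgeR called 0, 1 had an unadjusted p under 0.05 (*cpt1ab*, log2 1.25 ± 0.41, adjusted p = 0.368) and DESeq2 called 0, with 0% of 18939 genes called higher and 0.0106% lower. Of those 18939 genes, 1790 had an unadjusted p under 0.05. The comparisons of this paragraph share libraries, so they are not independent of one another.

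Without rapamycin, 5 of the 10 genes passed in ablated against intact RPE at each time, in both directions at 2dpi and upward at 4dpi. At 2dpi 3 of 10 were higher in MTZ+ DMSO than in MTZ- DMSO larvae (*pdk2a*, *cpt1aa* and *slc25a33*) and 2 lower (*cpt2* and *acadvl*), where 13.3% of all genes were called higher and 11.8% lower. At 4dpi 5 of 10 were higher (*angptl4*, *pdk2a*, *cpt1ab*, *cpt2* and *slc25a33*) and 0 lower, where 17.7% of genes were called higher and 12.2% lower. The median of the 10 was 0.74 at 2dpi and 1.18 at 4dpi, beside 0.04 and 0.27 over all genes. Many genes of all kinds moved with ablation, and these counts of 10 are to be read against those shares.

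*slc25a33* had 192, 162 and 143 CPM in MTZ+ DMSO and 39.7, 49.1 and 32.8 CPM in MTZ- DMSO libraries at 2dpi, a 4.12-fold difference (log2 2.04 ± 0.21, adjusted p = 3.48e-05). At 4dpi 102, 121 and 79.1 CPM stood against 28.4, 25.9 and 25.1 CPM, 3.99-fold higher (log2 2.00 ± 0.22, adjusted p = 0.000292), and without both MTZ+ libraries of replicate 2 the log2 value was 1.84 (adjusted p = 0.00129). The MTZ+ DMSO libraries were above all MTZ- DMSO libraries at both times, and both calls held in every leave-one-out fit. *pdk2a*, at 165, 160 and 239 CPM in MTZ+ DMSO and 50.9, 9.83 and 9.80 CPM in MTZ- DMSO libraries at 4dpi, was 8.40-fold higher (log2 3.07 ± 0.73, adjusted p = 0.00981), with log2 3.17 (adjusted p = 0.00917) without both. Its 2dpi groups overlapped, with 66.9, 41.1 and 116 CPM against 23.8, 43.0 and 22.9 CPM, and that call (log2 1.33 ± 0.35, adjusted p = 0.0142) was lost in 3 of 6 leave-one-out fits.

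*angptl4* had 44.9, 124 and 59.4 CPM in MTZ+ DMSO and 21.4, 9.58 and 16.2 CPM in MTZ- DMSO libraries at 4dpi. It was 5.09-fold higher (log2 2.35 ± 0.39, adjusted p = 0.00165), with the highest value in MTZ+ replicate 2. Without both MTZ+ libraries of that number it stood at log2 1.80 (adjusted p = 0.00376). At 2dpi the 310, 286 and 307 CPM of MTZ+ DMSO lay within the spread of the 154, 325 and 75.9 CPM of MTZ- DMSO libraries, and did not pass (log2 0.71 ± 0.41, adjusted p = 0.235). Without MTZ- DMSO replicate 2 *angptl4* passed (log2 1.37, adjusted p = 0.0118), so that 1 library decided the call. *cpt2* fell to 25.7, 12.7 and 15.7 CPM in MTZ+ DMSO larvae at 2dpi, against 49.6, 32.8 and 38.2 CPM in MTZ- DMSO larvae (log2 -1.14 ± 0.34, adjusted p = 0.0268, lost in 4 of 6 leave-one-out fits and with library totals), and rose to 18.96, 20.8 and 30.7 CPM at 4dpi, against 9.68, 6.15 and 11.2 CPM in MTZ- DMSO larvae (log2 1.45 ± 0.31, adjusted p = 0.00588, kept in all 6, and log2 1.53 with adjusted p = 0.00903 without both MTZ+ libraries of replicate 2). In MTZ- DMSO larvae *cpt2* itself was lower at 4dpi than at 2dpi.

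*acadvl* fell to 94.8, 105 and 128 CPM in MTZ+ DMSO larvae at 2dpi, against 187, 186 and 240 CPM in MTZ- DMSO larvae (log2 -0.89 ± 0.22, adjusted p = 0.00927), and *cpt1aa* rose to 35.4, 38.4 and 38.4 CPM, against 19.9, 17.6 and 21.9 CPM (log2 0.94 ± 0.21, adjusted p = 0.00497). Neither pair of groups overlapped, and both calls held in all 6 leave-one-out fits, but neither passed the study's filter of an absolute log2 fold change above 1. At 4dpi *acadvl* (log2 0.22 ± 0.20, adjusted p = 0.439) and *cpt1aa* (log2 0.50 ± 0.32, adjusted p = 0.249) overlapped between the groups. *cpt1ab* passed at 4dpi by a narrow margin (log2 0.88 ± 0.30, adjusted p = 0.0461) with overlapping groups, lost the call in 4 of 6 leave-one-out fits, and missed it without both MTZ+ libraries of replicate 2 (log2 0.93, adjusted p = 0.0901).

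Under rapamycin, edgeR called 1 of the 10 genes between ablated and intact RPE at each time, to be read against the shares of all genes given here. At each time 4 of the 10 had an unadjusted p under 0.05, and DESeq2 called 2 at 2dpi and 4 at 4dpi. Over all genes, 5266 of 17536 at 2dpi and 6016 of 17515 at 4dpi had an unadjusted p under 0.05. The shares of all genes that DESeq2 called are not given here or elsewhere. At 2dpi *angptl4* alone passed, at 333, 414 and 516 CPM in MTZ+ rapamycin and 1138, 1521 and 1188 CPM in MTZ- rapamycin libraries (log2 -1.62 ± 0.41, adjusted p = 0.0160, a fold of 0.325), where 10.5% of genes were called higher and 7.04% lower. The MTZ+ libraries lay far below, and the call was lost without MTZ- rapamycin replicate 2 or MTZ+ rapamycin replicate 1. At 4dpi *acadvl* alone passed, at 219, 271 and 275 CPM in MTZ+ rapamycin and 140, 157 and 198 CPM in MTZ- rapamycin libraries (log2 0.67 ± 0.20, adjusted p = 0.0393), where 11.4% of genes were called higher and 8.36% lower. This call held in 2 of 6 leave-one-out fits and missed without both MTZ+ libraries of replicate 2 (adjusted p = 0.104). With the replicate block *cpt1aa* was called higher too (log2 0.89, adjusted p = 0.0404).

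The intact DMSO RPE itself changed between 2dpi and 4dpi, that is between 7 dpf and 9 dpf. Of the 10 genes, 4 fell (*angptl4*, *cpt1ab*, *cpt2* and *acadvl*) and 0 rose, where 5.52% of all genes were called lower and 3.71% higher, and the median of the 10 was -1.02 beside -0.07 over all genes. *angptl4* had 154, 325 and 75.9 CPM at 2dpi and 21.4, 9.58 and 16.2 CPM at 4dpi, an 11.6-fold drop (log2 -3.54 ± 0.44, adjusted p = 4.73e-05). *cpt1ab* had 18.3, 19.5 and 15.2 CPM at 2dpi and 5.75, 2.90 and 4.43 CPM at 4dpi (log2 -2.00 ± 0.30, adjusted p = 0.000303). *cpt2* had 49.6, 32.8 and 38.2 CPM at 2dpi and 9.68, 6.15 and 11.2 CPM at 4dpi (log2 -2.14 ± 0.34, adjusted p = 0.000424). These groups did not overlap, and *acadvl* likewise fell by 1.20 ± 0.22 on the log2 scale (adjusted p = 0.00129). Each of the 4 calls held in all 6 leave-one-out fits. The libraries of the time points carry different dates in their raw names, so age and date cannot be told apart. *slc25a33* was lower at 4dpi without passing (log2 -0.59 ± 0.20, adjusted p = 0.0604).

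**Figure D3:**
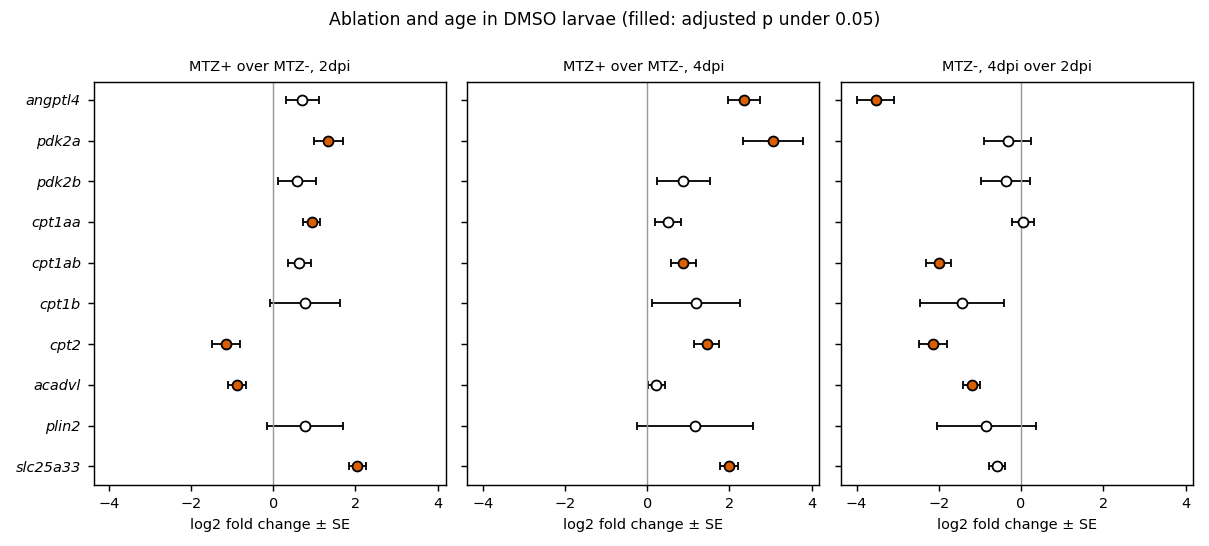
Log2 fold change with its SE for the 10 genes in DMSO larvae, for MTZ+ over MTZ- at 2dpi and at 4dpi, and for 4dpi over 2dpi in MTZ- larvae. Filled points passed an adjusted p under 0.05. *cpt2* stood at -1.14 after ablation at 2dpi, at 1.45 after ablation at 4dpi and at -2.14 between 2dpi and 4dpi in MTZ- DMSO larvae.

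Ordered by mean level, *angptl4* stood at 1282 ± 208 CPM in MTZ- rapamycin at 2dpi, 421 ± 91.9 in MTZ+ rapamycin at 2dpi, 364 ± 61.1 in MTZ- rapamycin at 4dpi, 301 ± 12.98 in MTZ+ DMSO at 2dpi, 247 ± 37.1 in MTZ+ rapamycin at 4dpi, 185 ± 128 in MTZ- DMSO at 2dpi, 76.2 ± 42.3 in MTZ+ DMSO at 4dpi and 15.7 ± 5.94 CPM in MTZ- DMSO at 4dpi (SD, n = 3 each). Neighbouring groups in this order overlapped, except the first with the second, the fourth with the fifth and the seventh with the eighth.

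Other beta-oxidation genes fell in MTZ- DMSO RPE at 4dpi against 2dpi, and in MTZ+ DMSO against MTZ- DMSO RPE at 2dpi. The list of these genes, like the further lists below, was chosen with earlier results of these data known, so its shares are a description. Of 23 tested genes of mitochondrial beta-oxidation other than *acadvl*, 12 fell and 0 rose in MTZ- DMSO RPE between 2dpi and 4dpi, with a median log2 fold change of -0.86, where 5.52% of all genes were called lower and 3.71% higher. They included the trifunctional protein subunits *hadhaa* (log2 -2.79, adjusted p = 2.57e-05), *hadhb* (log2 -1.98, adjusted p = 2.03e-05) and *hadhab* (log2 -1.48). After ablation at 2dpi 10 of the 23 fell and 0 rose, where 11.8% of all genes were called lower, with the acyl-CoA dehydrogenase *acadl* at log2 -1.68 and *decr1*, which acts on unsaturated fatty acids, at -1.93. At 4dpi 5 rose, among them *hadhaa* (1.42), and 4 fell, among them *acat1* (-1.07), where 17.7% of all genes were called higher and 12.2% lower, so these shares of 23 lay near those of all genes. Without both MTZ+ libraries of replicate 2, *acaa2* (adjusted p = 0.0742), *acadsb* (adjusted p = 0.0539) and *pccb* (adjusted p = 0.0527) missed the threshold. The others passed, with *hadhaa* at log2 1.56 (adjusted p = 0.0190) and *acat1* at -1.02 (adjusted p = 0.0122). Rapamycin moved 2 of 23 in MTZ- larvae at 4dpi, *hadh* (1.08) and *hadhaa* (1.52), both up, where 2.28% of all genes were called higher. In the other comparisons of rapamycin with DMSO edgeR called 0 of the 23, with 4 (MTZ+ at 2dpi), 1 (MTZ- at 2dpi) and 2 (MTZ+ at 4dpi) at an unadjusted p under 0.05 and 0 called by DESeq2 in each. In the same order, 2374 and 1323 of all 17536 genes and 3357 of all 17515 genes had an unadjusted p under 0.05.

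**Figure D4:**
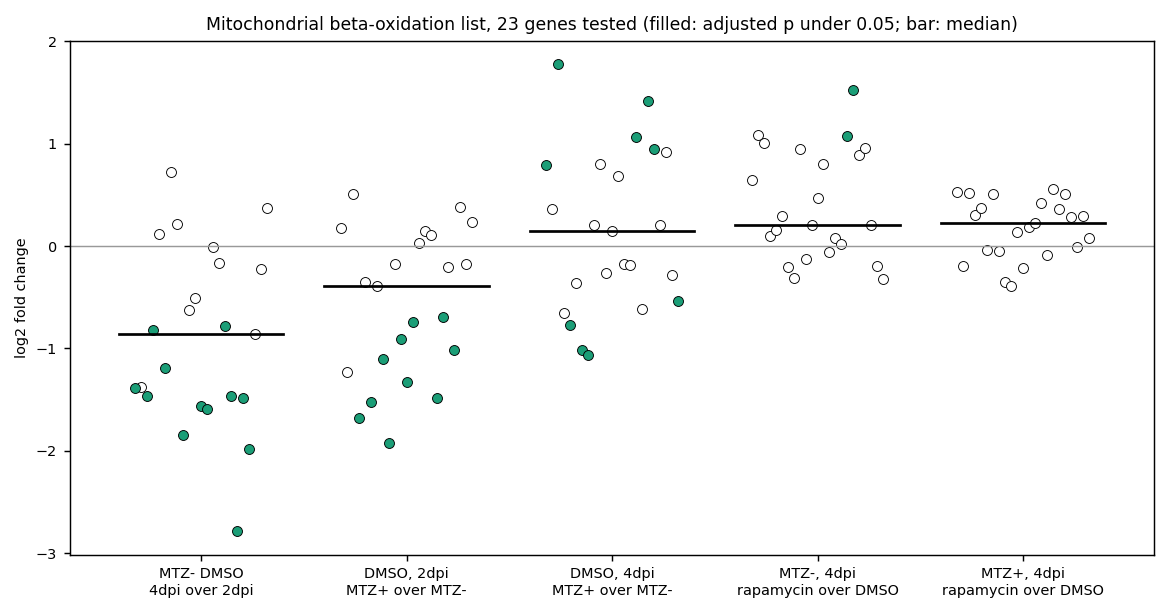
Log2 fold change of the 23 tested genes of mitochondrial beta-oxidation in 5 comparisons, each gene a point in the same horizontal place, filled where its adjusted p was under 0.05, with a bar at the median. The median was -0.86 for MTZ- DMSO between 2dpi and 4dpi and 0.21 for rapamycin in MTZ- larvae at 4dpi.

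Of 13 tested carnitine shuttle and acyl-CoA synthetase genes, 1 rose and 1 fell with rapamycin in MTZ+ larvae at 4dpi, and 3 rose and 0 fell in MTZ- larvae. Of all genes, 1.63% were called higher and 1.88% lower in MTZ+ larvae, and 2.28% and 0.331% in MTZ- larvae. The carnitine carrier *slc25a20* rose with rapamycin at 4dpi in both MTZ+ (log2 0.72, adjusted p = 0.0299) and MTZ- larvae (log2 0.83, adjusted p = 0.0170). It fell in MTZ- DMSO larvae at 4dpi against 2dpi (log2 -1.22). The MTZ+ call of *slc25a20* was lost without both MTZ+ libraries of replicate 2 (log2 0.81, adjusted p = 0.109). It stood at 74.5 ± 7.64 CPM in MTZ+ rapamycin, 44.2 ± 0.33 in MTZ+ DMSO, 58.3 ± 3.61 in MTZ- rapamycin and 32.7 ± 3.70 CPM in MTZ- DMSO libraries at 4dpi. The synthetase *acsl2* went both ways with rapamycin, falling in MTZ+ (log2 -2.09) and rising in MTZ- larvae (log2 1.77) at 4dpi, and its interaction passed (log2 -3.86, adjusted p = 0.00958). Without both libraries neither its fall in MTZ+ larvae (log2 -1.95, adjusted p = 0.155) nor the interaction passed (log2 -3.73, adjusted p = 0.0513). Among PPAR, RXR and other fasting transcription factors, 5 of 19 fell after ablation at 2dpi (*pparaa* at log2 -2.19, *pparda* at -2.10, *klf15*, *rxraa* and *nr3c1*) and 3 rose (*ppargc1b*, *foxo1a* and *foxo3b*), where 11.8% of all genes were called lower and 13.3% higher. At 4dpi 5 of 20 fell, with *pparaa* at -1.91 and *pparda* at -2.00, and 1 rose, where 12.2% were called lower and 17.7% higher. Without both MTZ+ libraries of replicate 2, 5 of these 6 passed, *pparaa* at -1.75 (adjusted p = 0.0251) and *pparda* at -1.87 (adjusted p = 0.0104). *foxo3b* (log2 2.00) and *foxo1a* (log2 1.86), transcription factors active in fasting, rose in MTZ- DMSO larvae at 4dpi against 2dpi. With rapamycin 1 of 19 rose and 0 fell in MTZ+ larvae at 2dpi, where 0.371% of all genes were called higher. In the other comparisons of rapamycin with DMSO edgeR called 0 of this list. At an unadjusted p under 0.05 there were 6 in MTZ- larvae at 2dpi, and 7 in MTZ+ and 4 in MTZ- larvae at 4dpi. In the same order DESeq2 called 3, 5 and 2, and the replicate block 0, 1 and 0. *pparaa*, whose mammalian counterpart drives *angptl4* and the carnitine transferases, was at 2.64 ± 1.45 CPM in MTZ+ rapamycin, 4.89 ± 1.74 in MTZ+ DMSO, 11.8 ± 2.77 in MTZ- rapamycin and 19.3 ± 5.46 CPM in MTZ- DMSO libraries at 4dpi. Of 15 fatty acid synthesis genes, 1 fell and 0 rose with rapamycin in MTZ+ larvae at 4dpi, where 1.88% of all genes were called lower. This was *fasn* (log2 -0.87, adjusted p = 0.0285), which fell to 46.0 ± 7.34 CPM, against 82.0 ± 14.6 CPM in MTZ+ DMSO larvae. Its call was lost without both MTZ+ libraries of replicate 2 (log2 -0.78, adjusted p = 0.163). In MTZ- larvae at 4dpi 1 of the 15 rose, the elongase *elovl6*, where 2.28% of all genes were called higher. The interaction at 4dpi was negative for 2 of the 15, *elovl6* and the desaturase *scdb*, where 2.86% of all genes were called lower. Neither interaction passed without both libraries (adjusted p = 0.110 for *elovl6* and 0.0963 for *scdb*). Of 17 tested genes of fasting and glucose sparing, 4 fell and 0 rose with rapamycin in MTZ+ larvae at 4dpi (median log2 -0.99), where 1.88% of all genes were called lower. The stress-response gene *sesn1* fell to 78.2 ± 25.0 CPM in MTZ+ rapamycin, against 503 ± 92.8 CPM in MTZ+ DMSO libraries (log2 -2.72, adjusted p = 0.00807), and the mitochondrial carrier *ucp2* to 164 ± 49.4 CPM, against 448 ± 209 CPM (log2 -1.49, adjusted p = 0.0458). *ucp1* and *igfbp1b* were the others, and without both libraries only *igfbp1b* of the 4 passed (adjusted p = 0.0498), with *sesn1* at 0.0723. In MTZ- larvae at 4dpi *trib3* rose and *sesn1* fell. At 2dpi edgeR called 0 of 15 in MTZ+ and in MTZ- larvae, 3 and 4 had an unadjusted p under 0.05, DESeq2 called 1 and 0, and the replicate block 1 and 0. Of 13 genes of pyruvate dehydrogenase control other than the *pdk2* pair, edgeR called 0 in each of the 4 comparisons of rapamycin with DMSO. At an unadjusted p under 0.05 there were 4 in MTZ+ and 1 in MTZ- larvae at 2dpi, and 6 in MTZ+ and 1 in MTZ- larvae at 4dpi, while DESeq2 called 1 in MTZ+ larvae at 2dpi, 5 in MTZ+ larvae at 4dpi and 0 in MTZ- larvae at either time, and the replicate block called 1 in MTZ+ larvae at 4dpi. Of all 17536 genes at 2dpi, 2374 in MTZ+ and 1323 in MTZ- larvae had an unadjusted p under 0.05. Of all 17515 genes at 4dpi, 3357 in MTZ+ and 3066 in MTZ- larvae did. *pdk4*, a kinase known to rise in fasting and named here after its values were seen, was at 8.91 ± 4.50 CPM in MTZ+ rapamycin, 13.2 ± 3.25 in MTZ+ DMSO, 20.9 ± 4.33 in MTZ- rapamycin and 22.6 ± 5.49 CPM in MTZ- DMSO libraries at 4dpi.

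Over the 24 libraries and 18939 tested genes, the gene most like *angptl4* in log2 CPM was another of the 10, *cpt1ab* (Pearson r = 0.885), followed by a gene model named after its clone (0.864). *slc25a33* was most like *abcf2a* (0.940), *prelid3b* (0.919) and *higd1a* (0.902). *pdk2b* was most like *klf11a* (0.770), *gch2* (0.742) and *pdk2a* (0.733), and *plin2*, at its low counts, like *BX927193.2* (0.744), *znf569l* (0.714) and *grem1a_2* (0.706). The libraries share groups, dates and scaling, so these values describe likeness and carry no test.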

How the data were processed

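RNA from 24 libraries of sorted eGFP+ RPE cells, 3 separate pools of larvae in each of 8 groups, had been sequenced by the authors with SMART-Seq and Nextera XT chemistry. The deposited tables hold total counts per gene, made by the authors with CLC Genomics Workbench (version not given in the sources used here) on GRCz11, and TPM values that the authors derived from them. Strand use and the handling of shared reads are not given in the sources used here. The deposited columns of group means, fold changes and p-values, and the RPKM and CPM columns, were not used, and 0 sample columns were left unmapped.

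Counts were tested in R 4.3.3 with edgeR 4.0.16 (robust quasi-likelihood F-test, TMM scaling, filterByExpr with a count minimum of 10), over the 12 libraries of a time point or all 24 for comparisons between times. A gene was called at a Benjamini-Hochberg adjusted p under 0.05 over all genes tested. Total counts of 20607731 to 37189527 put 3 counts at 0.0754 to 0.134 CPM. The reads carry no molecular identifiers, so such floors cover counting error only. The same steps were tested on simulated data: with changes of 1 on the log2 scale edgeR called 5 of 47 genes in the simulated MTZ+ rapamycin against MTZ+ DMSO comparison at 2dpi, 22 of 47 with changes of 2 and 28 of 48 with changes of 4, and 1 of 16801 unchanged genes. That last share of 48 missed the share first required of the simulation, which was then lowered. DESeq2 called 38 of the 48 and 43 of the 16801.

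Within a time point, libraries with the same number carry one date in their raw names, which pairs them. Their deviations from the group means correlated at 0.152 on average at 2dpi (-0.125 to 0.395, 18 pairs) and 0.0621 at 4dpi (-0.0717 to 0.346, 18 pairs). Alternatives were RLE scaling, no filter, the replicate block, DESeq2 1.42.0, only the 6 libraries compared, the study's filters (log2 fold change of at least 1, group mean of at least 1 TPM), leaving out each library, and 2 chosen after the data were seen: library totals without scaling factors, and leaving out both MTZ+ libraries of replicate 2 at 4dpi. The 10 genes and the pathway lists were chosen with earlier results of these data known. Named genes were the 10, up to 4 genes per direction and list with the smallest adjusted p, and the 3 genes most like *angptl4*, *pdk2b*, *plin2* and *slc25a33*. One of these is not reported here.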

Additional observations from a re-analysis of the deposited data

Results flagged for a closer look

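By a test of the difference itself (edgeR's quasi-likelihood test), 2 of the 10 genes were called at 4dpi for a response to rapamycin that differed between ablated and intact RPE. Of all 17515 genes, 2.86% were called lower and 0.605% higher. The 10 were chosen with earlier results of these libraries known, so this count is a description rather than independent evidence. For *angptl4* the log2 fold change in MTZ+ less that in MTZ- larvae was -2.87 (adjusted p = 0.0178), from log2 1.66 in MTZ+ and 4.53 in MTZ- larvae. Without both MTZ+ libraries of replicate 2 it was -2.43 and did not pass (adjusted p = 0.0513). For *slc25a33* it was -2.03 (adjusted p = 0.00964), from log2 0.12 in MTZ+ and 2.15 in MTZ- larvae, and -1.89 (adjusted p = 0.0453) without both libraries. Both genes were higher in MTZ+ DMSO than in MTZ- DMSO libraries at 4dpi, *angptl4* 5.09-fold and *slc25a33* 3.99-fold. Those DMSO libraries also enter the test of the difference, so these folds are not independent of it. Sums of RPE markers ran from 24341 to 128177 CPM in MTZ+ and from 100635 to 133640 CPM in MTZ- libraries at 4dpi, and their part in the difference was not tested.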

How the results depend on the processing

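Of the 10 genes, the number that passed was recomputed under each alternative, and no result changed direction. DESeq2 called 1 against 0 for rapamycin in MTZ+ larvae at 2dpi, 5 against 3 in MTZ- larvae at 2dpi, 2 against 1 for ablation under rapamycin at 2dpi, 3 against 0 for the interaction at 2dpi, 7 against 5 for rapamycin in MTZ- larvae at 4dpi (adding *pdk2b* and *cpt2*), 3 against 2 for the interaction at 4dpi (*pdk2a*), 5 against 4 for MTZ- DMSO larvae at 4dpi against 2dpi (*slc25a33*), and 4 against 1 for ablation under rapamycin at 4dpi. That last count was also 0 with RLE scaling, without a filter, with the study's filters and without both MTZ+ libraries of replicate 2, 2 with the replicate block, and 3 with only the 6 libraries compared or with library totals. RLE scaling gave 2 for ablation under rapamycin at 2dpi, library totals gave 1 for rapamycin in MTZ- larvae at 2dpi, and the study's filters gave 3 for ablation in DMSO at 2dpi. Leaving out both MTZ+ libraries of replicate 2 gave 1 for rapamycin in MTZ+ larvae and 1 for the interaction at 4dpi. The shares of all genes called under DESeq2, the replicate block and the other alternatives are not given, so these counts cannot be set against them. On simulated data DESeq2 called 43 of 16801 unchanged genes and edgeR 1. Causes were not tested.

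Leaving out each library gave, at 2dpi, 0 to 3 for rapamycin in MTZ- larvae, 3 to 6 for ablation in DMSO and 0 to 2 for ablation under rapamycin. At 4dpi it gave 2 to 3 for rapamycin in MTZ+, 3 to 4 for rapamycin in MTZ- larvae, 4 to 5 for ablation in DMSO, 0 to 1 for ablation under rapamycin and 2 to 3 for the interaction, and it gave 4 to 5 for MTZ- DMSO larvae at 4dpi against 2dpi. The replicate block, which uses the pairing by date, gave 4 against 3 for rapamycin in MTZ- larvae at 2dpi, 2 against 3 in MTZ+ and 4 against 5 in MTZ- larvae at 4dpi, and 3 against 2 for the interaction at 4dpi. RLE scaling moved the median of all genes by at most 0.04 on the log2 scale, and library totals moved it by -0.29 to 0.44.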
